A study of Mus musculus with 12 samples.

Results

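The genes described here encode the enzymes and transporters that carry glucose to lactate, together with the hypoxia factors and the genes they are known to induce. They were chosen by name, as 34 rows of the deposited expression table out of 24458. Of these, 22 act in glycolysis or move glucose or lactate, and 12 are hypoxia factors or hypoxia response genes. Expression was given in FPKM (fragments scaled by transcript length and by library depth) in 12 libraries, 3 from each of 4 lines of murine small-cell lung cancer (SCLC), in which 31 of the 34 reached 1 FPKM in at least 3 libraries and were tested. All lines came from tumors of the RP model, in which conditional (floxed) alleles of Rb1 and Trp53 were deleted in the lung by Cre-expressing adenovirus, on a mixed background of C57Bl/6, Balb-c and S129. SMC#1 and SMC#2 are SCLC metastasizing cells, which were taken from the NCAM-high gate with little or no CD44 and grow as floating spheres. Non-SMC#1 and Non-SMC#2 are non-metastasizing cells from the gate with high CD44 and low NCAM, and grow attached. All 4 lines were untreated and kept in RPMI1640 with 10% serum. The lines were paired by the number in their labels. Nothing says that the 3 libraries of a line were separate cultures, so p-values cover only library-to-library spread, which may be technical, and each class is 2 lines. Class and growth form cannot be told apart, and a lower level of a transcript in a line may be fewer cells that express it or less RNA per cell.

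Glycolysis splits glucose into pyruvate in the cytosol, and lactate dehydrogenase reduces pyruvate to lactate, which leaves the cell through monocarboxylate transporters. Several steps are served by isozymes from separate genes, whose use differs between tissues. When oxygen is low, the HIF alpha subunits escape hydroxylation by the EGLN enzymes, pair with ARNT and bind promoters at hypoxia response elements, and most glycolysis genes are among their known targets. SCLC lines of the neuroendocrine kind and lines of the mesenchymal kind are known to differ in form and adhesion.

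Of the labelled sorting markers, Cd44 was at 0.0760 to 0.229 FPKM in SMC and 76.0 to 88.5 in non-SMC, whereas Ncam1 was lower in SMC by 0.44 on the log2 scale (limma adjusted p = 4.43e-06), although SMC were sorted for high NCAM. Epcam was at 191 to 294 FPKM in SMC, 0 to 0.0176 in Non-SMC#1 and 41.0 to 53.9 in Non-SMC#2. A list of 7 neuroendocrine genes summed to 1454 to 2112 FPKM in SMC and 18.8 to 75.9 in non-SMC, and 5 mesenchymal genes, Cd44 among them, to 0.107 to 0.807 against 3728 to 5482. Fibroblast markers (7 genes) summed to 0.606 to 3.999 FPKM in SMC and 395 to 1501 in non-SMC, and their part in the differences below was not tested. Endothelial (5 genes) and erythroid markers (4 genes) were all under 1 FPKM in each library, as were 5 of 6 leukocyte markers, the exception being Cd68 at up to 4.54 FPKM. FPKM sums ran from 289158 to 360102 in SMC and from 363103 to 427958 in non-SMC, so library sum and class cannot be told apart. The spacing of low values gave relative depths of 0.927 to 1.43 with the first SMC#1 library as 1.

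Most glycolysis genes were lower in SMC than in non-SMC. Of the 31 members tested, 24 were lower and 4 higher in SMC in limma on log2(FPKM + 1), at a Benjamini-Hochberg adjusted p under 0.05, beside 42.4% lower and 44.7% higher among all 13122 rows tested. Called alike in both pairs were 17 lower members (background 30.2%) and 4 higher ones (background 32%). Of the 17, Gpi1, Pfkl and Slc16a1 were no longer called lower in pair 2 under TPM rescaling or quantile normalization. Aldoc, 1 of the 4, lost its pair 2 call under quantile normalization. At 1 log2 unit or more in both pairs, 8 members were lower, where the background is 11.8%: Slc2a1, Hk2, Pfkm, Aldoa, Pgk1, Pgam1, Ldha and Vegfa. All 6 SMC libraries lay below all 6 non-SMC libraries for 15 members (background 27.1%) and above them for 1, Ankrd37 (background 28%). Of the 24 lower members, Ldhb and Epas1 entered the test only through non-SMC libraries, where each is high, so their calls are a description. Ldhb is also among the 17 called lower in both pairs and the 15 with no overlap. The median difference was -1.07 over the 21 glycolysis members and -0.24 over the 10 hypoxia members, beside 0.024 over all rows. Under TPM rescaling, in which every library is scaled to the same sum, the hypoxia median was 0.00039, the glycolysis median -0.81 and the median of all rows 0.31. Only 1692 of the 13122 rows were not called in either direction. With the line as the unit of replication, 8 members were called lower (background 9.72%) and 1 higher (background 8.49%).

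**Figure D1:**
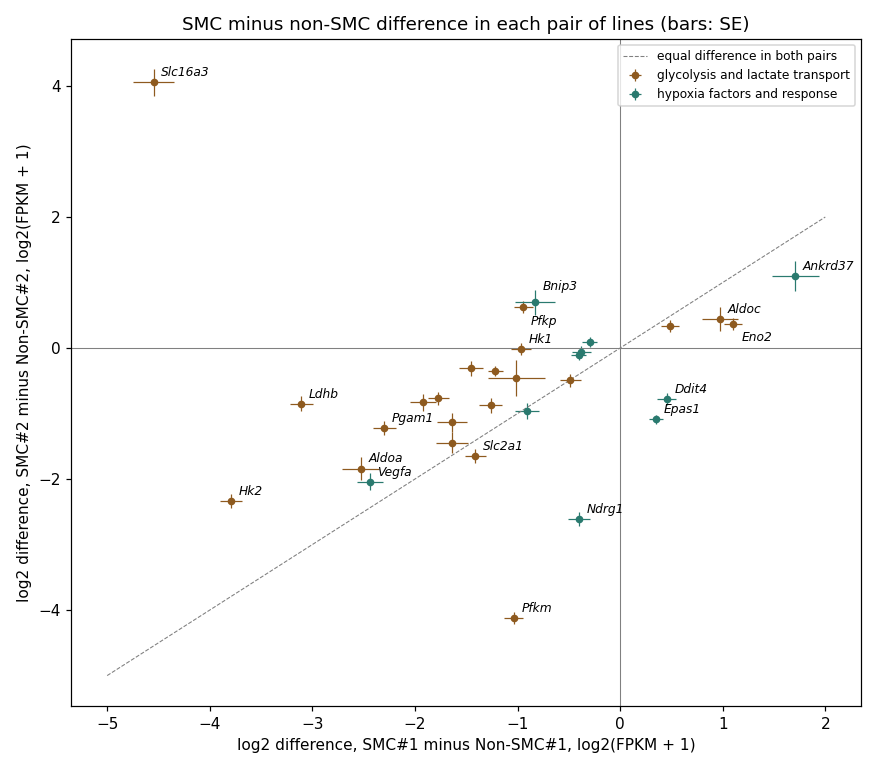
Log2 difference (SMC minus non-SMC, on log2(FPKM + 1)) of the 31 members tested in pair 1 (horizontal) and pair 2 (vertical), with bars for the standard error and a dashed line where both pairs are equal. Most glycolysis genes sit below 0 on both axes, Ankrd37 above 0 on both, and Slc16a3 at -4.55 in pair 1 and 4.05 in pair 2.

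The promoters of 4 members are shown as examples of members called in both pairs: Pgk1 and Ldha were lower in SMC in each, Ankrd37 was higher in each, and Slc16a3 went opposite ways. Each sequence is the 250 bases before the annotated start on the gene's strand, from RefSeq on GRCm38.p6 (for Ldha, which has 2, the promoter with more matches), with ACGTG and GCGTG, the core of the hypoxia response element, in capitals on either strand (CACGT and CACGC on the other). Pgk1 (phosphoglycerate kinase) is at chrX:106186850-106187099 (+), Ldha (lactate dehydrogenase A) at chr7:46845554-46845803 (+), Slc16a3 (the lactate exporter MCT4) at chr11:120948817-120949066 (+) and Ankrd37 (an ankyrin repeat protein) at chr8:45999851-46000100 (-).
Pgk1: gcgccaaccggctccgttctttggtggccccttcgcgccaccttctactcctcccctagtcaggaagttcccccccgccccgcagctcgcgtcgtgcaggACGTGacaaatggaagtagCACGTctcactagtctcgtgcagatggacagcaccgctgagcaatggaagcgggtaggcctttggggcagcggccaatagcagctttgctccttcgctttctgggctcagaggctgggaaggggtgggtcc
Ldha: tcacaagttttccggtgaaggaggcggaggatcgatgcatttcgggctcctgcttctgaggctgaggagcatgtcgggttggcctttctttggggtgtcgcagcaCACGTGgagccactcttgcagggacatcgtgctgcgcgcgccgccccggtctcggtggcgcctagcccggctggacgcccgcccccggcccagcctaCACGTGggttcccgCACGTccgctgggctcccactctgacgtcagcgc
Slc16a3: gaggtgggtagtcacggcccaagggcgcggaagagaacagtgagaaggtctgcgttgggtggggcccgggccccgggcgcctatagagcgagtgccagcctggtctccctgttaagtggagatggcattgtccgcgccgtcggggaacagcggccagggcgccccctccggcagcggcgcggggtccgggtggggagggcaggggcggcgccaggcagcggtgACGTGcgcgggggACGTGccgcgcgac
Ankrd37: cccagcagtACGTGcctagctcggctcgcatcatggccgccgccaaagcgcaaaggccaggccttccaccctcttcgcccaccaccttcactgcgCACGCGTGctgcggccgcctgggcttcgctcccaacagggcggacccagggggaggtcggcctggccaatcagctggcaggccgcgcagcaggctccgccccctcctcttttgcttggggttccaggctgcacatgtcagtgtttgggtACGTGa

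In Pgk1 the cores start 150 and 131 bases before the annotated start. The Ldha promoter held 2 E-boxes (CACGTG, which contains ACGTG on both strands) and a further core 34 bases before the start. The 2 cores of Slc16a3 lie 27 and 14 bases before the start, and those of Ankrd37 lie 241, 155, 152 and 6 bases before it, of which the middle ones overlap. Of the 34 members, 31 had a promoter in the table, and Slc2a3, Epas1 and Ndrg1 had none. At least 1 of both cores was in a promoter of 28 of these 31 genes, and in 80% of their 45 promoters, compared with 38.6% of all 32851 promoters and 55.9% of the 12560 promoters of genes tested here. ACGTG alone was in 48.9% of the members' promoters, 16.6% of all and 21.3% of those of tested genes. For GCGTG these shares were 53.3%, 28.2% and 44.9%, and for CACGTG 13.3%, 6.02% and 8.16%. Base composition was not matched in these shares, and a match is not a binding site. The members include known HIF targets, so a high share of cores may follow from how they were chosen.

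At the entry of the pathway, the glucose transporter gene Slc2a1 (GLUT1) was at 17.3, 16.0 and 18.9 FPKM in SMC#1, 47.7, 49.1 and 46.6 in Non-SMC#1, 14.9, 13.9 and 13.2 in SMC#2, and 43.1, 40.5 and 55.3 in Non-SMC#2. The SMC libraries were all below the non-SMC libraries, and both pairs moved by a like amount. The difference was -1.53 (SE 0.07, limma adjusted p = 2.48e-10), or 2.75-fold in pair 1 and 3.31-fold in pair 2 by mean FPKM. Slc2a3, the neuronal glucose transporter GLUT3, did not pass the filter, at 0.00725 to 0.273 FPKM.

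Hexokinase traps glucose in the cell by phosphorylation, and its 2 member genes behaved differently. Hk2, the inducible form, was at 0.00612, 0.00651 and 0.0103 FPKM in SMC#1, 13.5, 13.1 and 12.3 in Non-SMC#1, 3.42, 4.76 and 3.02 in SMC#2, and 23.3, 22.4 and 22.3 in Non-SMC#2. It was close to 0 in SMC#1 and lower in both SMC lines than in either non-SMC line (-3.07, SE 0.07, limma adjusted p = 1.58e-13). Hk1, the form present in most tissues, was at 28.7, 27.9 and 30.0 FPKM in SMC#1 and 57.9, 57.6 and 56.6 in Non-SMC#1, but at 31.3, 30.0 and 28.3 in SMC#2 and 26.2, 29.0 and 36.1 in Non-SMC#2. Only Non-SMC#1 stood above the other lines. The Hk1 difference was -0.97 in pair 1 (SE 0.10, adjusted p = 8.05e-07) and -0.013 in pair 2 (SE 0.10, adjusted p = 0.905), where it turned to 0.36 under TPM rescaling and 0.27 under quantile normalization. Hk2 thus made up 0.0213 to 0.0342% of the FPKM of Hk1 and Hk2 in SMC#1 and 9.63 to 13.7% in SMC#2, against 17.9 to 18.9% in Non-SMC#1 and 38.2 to 47.1% in Non-SMC#2.

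The summed level of Hk1 and Hk2 was 28.9 ± 1.07 FPKM (SD, n = 3) in SMC#1, 70.3 ± 1.29 in Non-SMC#1, 33.6 ± 1.96 in SMC#2 and 53.0 ± 4.72 in Non-SMC#2. Hexokinase genes outside the members were not counted, so this sum is not the level of the whole step.

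**Figure D2:**
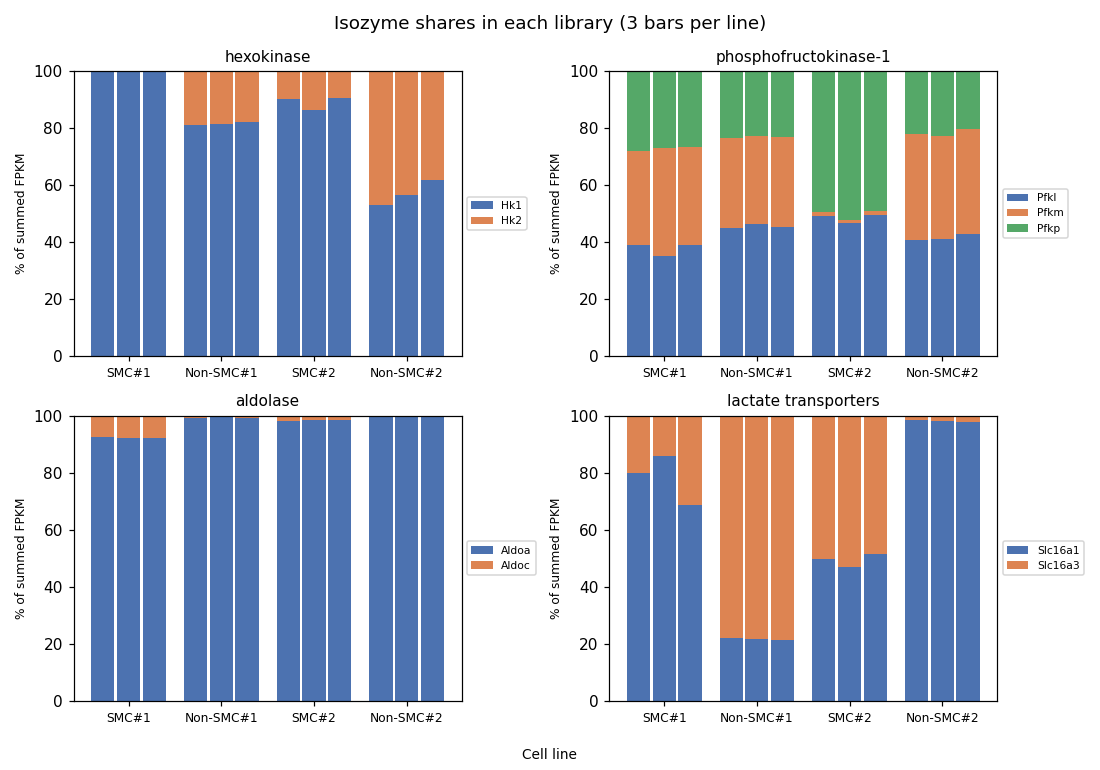
Share of each member isozyme in the summed FPKM of its step's members (vertical, percent), for hexokinase, phosphofructokinase-1, aldolase and lactate transport. There is 1 bar per library and 3 bars per line. Genes of a step outside the members, such as Slc16a7, are not in the sums. Hk2 is not visible in SMC#1, Pfkm nearly vanishes in SMC#2, and the Slc16a3 share runs from 1.47% in a Non-SMC#2 library to 78.7% in a Non-SMC#1 library.

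Glucose-6-phosphate isomerase (Gpi1) was at 33.3 ± 4.39 FPKM in SMC#1, 46.7 ± 1.05 in Non-SMC#1, 34.1 ± 1.55 in SMC#2 and 48.7 ± 6.53 in Non-SMC#2 (SD, n = 3). It was lower in SMC by 0.49 on the log2 scale in each pair, and the call of pair 2 was lost under TPM rescaling (-0.13) and quantile normalization (-0.19).

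Phosphofructokinase-1, the committed step of glycolysis, has 3 subunit genes named after liver, muscle and platelet. The muscle subunit Pfkm was at 15.7, 16.5 and 18.6 FPKM in SMC#1, 36.0, 36.3 and 35.1 in Non-SMC#1, 0.648, 0.563 and 0.752 in SMC#2, and 26.2, 25.6 and 31.9 in Non-SMC#2. It was lower in both SMC lines, and under 1 FPKM in SMC#2 alone. The differences were -1.04 in pair 1 and -4.12 in pair 2 (SE 0.09 each, limma adjusted p = 1.65e-07 and 9.05e-14). The platelet subunit Pfkp was at 13.5, 11.997 and 14.7 FPKM in SMC#1 and 26.8, 27.2 and 25.8 in Non-SMC#1, but at 25.3, 29.8 and 23.3 in SMC#2 and 15.8, 16.2 and 17.4 in Non-SMC#2. Thus it was lower in SMC in pair 1 (-0.95, adjusted p = 6.12e-07) and higher in pair 2 (0.63, adjusted p = 3.12e-05), with no overlap in either.

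Between the classes the Pfkp libraries overlapped. The mean Pfkp difference of -0.16 (limma adjusted p = 0.0363) lost the call without any 1 of 7 libraries (adjusted p up to 0.0989, without SMC#2 replicate 3) and was 0.092 under TPM rescaling. The 7 were replicates 1 and 2 of SMC#1, replicates 1 and 2 of Non-SMC#1, replicates 1 and 3 of SMC#2 and replicate 3 of Non-SMC#2. The liver subunit Pfkl was at 18.5 ± 2.89 FPKM in SMC#1, 52.1 ± 2.36 in Non-SMC#1, 25.1 ± 1.63 in SMC#2 and 31.5 ± 4.56 in Non-SMC#2. Pfkl was lower in pair 1 (-1.45, limma adjusted p = 7.36e-08) and in pair 2 (-0.31, adjusted p = 0.0242). In pair 2 the call was lost without SMC#2 replicate 1 (-0.31), SMC#2 replicate 3 (-0.26) or Non-SMC#2 replicate 3 (-0.20). It was also lost under quantile normalization, and the difference was 0.051 under TPM rescaling. By share of the 3 subunits, Pfkm was 32.8 to 37.5% in SMC#1, 30.7 to 31.6% in Non-SMC#1 and 36.2 to 37.0% in Non-SMC#2, but 0.987 to 1.58% in SMC#2, where Pfkp was 49.0 to 52.2%. The summed Pfk FPKM was 48.8 ± 5.33 in SMC#1 and 51.9 ± 4.83 in SMC#2, against 115 ± 3.56 in Non-SMC#1 and 75.9 ± 8.89 in Non-SMC#2.

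Pfkfb3 makes fructose 2,6-bisphosphate, an activator of phosphofructokinase-1. It was 1 of the 4 members higher in SMC in both pairs, at 6.74 ± 0.883 FPKM in SMC#1, 4.50 ± 0.113 in Non-SMC#1, 4.12 ± 0.359 in SMC#2 and 3.08 ± 0.351 in Non-SMC#2 (0.41, SE 0.06, limma adjusted p = 5.17e-05). Within each pair the libraries did not overlap, but across pairs SMC#2 overlapped Non-SMC#1.

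Aldolase A (Aldoa), the main aldolase of muscle and of most growing cells, had the highest single FPKM among the members' own rows, in Non-SMC#1. It was at 136, 119 and 198 FPKM in SMC#1, 833, 881 and 853 in Non-SMC#1, 185, 197 and 142 in SMC#2, and 606, 549 and 719 in Non-SMC#2. All SMC libraries were below all non-SMC libraries (-2.18, SE 0.13, limma adjusted p = 1.92e-09), by 5.67-fold in pair 1 and 3.58-fold in pair 2. Aldoc, the brain aldolase, was in contrast higher in SMC#1, at 10.8, 10.2 and 16.4 FPKM, than in Non-SMC#1, at 5.83, 5.05 and 6.32. In SMC#2 it was at 3.24, 2.83 and 2.10 and in Non-SMC#2 at 1.83, 1.21 and 2.20, so the libraries of pair 2 overlapped. The call of the pair 2 difference of 0.44 (adjusted p = 0.0358) was lost with any 1 of 4 libraries left out. These were SMC#2 replicate 1 (0.34) or 2 (0.42) and Non-SMC#2 replicate 1 (0.47) or 2 (0.29). It was also lost under quantile normalization. Aldoc made up 7.34 to 7.86% of aldolase FPKM in SMC#1, 1.41 to 1.72% in SMC#2 and under 1% in each non-SMC library.

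From triose phosphates to pyruvate, each member except Eno2 was called lower in SMC, and Eno1 in pair 2 depended on how its copies were counted. Tpi1 (triosephosphate isomerase) was at 183, 167 and 225 FPKM in SMC#1, 705, 750.3 and 716 in Non-SMC#1, 236, 197 and 193 in SMC#2, and 395, 319.7 and 403 in Non-SMC#2. Phosphoglycerate kinase (Pgk1) was at 39.1, 34.7 and 48.0 FPKM in SMC#1, 121, 137 and 125 in Non-SMC#1, 30.1, 30.4 and 27.8 in SMC#2, and 109.7, 70.7 and 70.4 in Non-SMC#2. Pgam1 (phosphoglycerate mutase) was at 73.7, 62.9 and 86.5 FPKM in SMC#1, 358, 383 and 359 in Non-SMC#1, 73.8, 68.8 and 67.6 in SMC#2, and 173, 147 and 176 in Non-SMC#2. For these 3 genes no SMC library reached a non-SMC library, and Non-SMC#1 was the highest line. The differences were -1.38 for Tpi1, -1.54 for Pgk1 and -1.76 for Pgam1, with limma adjusted p of 9.09e-09, 2.07e-08 and 1.28e-10. On mm9, the build of the table, Pgk1 lies on chromosome X at 103382439 to 103399038 and Pgam1 on chromosome 19 at 41986361 to 41993155.

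Gapdh (glyceraldehyde-3-phosphate dehydrogenase) and Eno1 (the widely expressed enolase) need care, because the table has other rows of nearly the same sequence. A row named Gm12070 has a transcript 99.9% identical to Gapdh, and 2 rows named Eno1b have one 99.5% identical to Eno1, 1 of them over the Eno1 gene itself on chromosome 4. Reads of these genes may thus be split between rows. The Eno1 row alone held only 1.39 ± 0.568 FPKM in SMC#1, 3.77 ± 0.709 in Non-SMC#1, 1.61 ± 1.18 in SMC#2 and 2.41 ± 0.693 in Non-SMC#2. With its copies summed, Eno1 was at 242, 219 and 299 FPKM in SMC#1, 708, 747 and 707 in Non-SMC#1, 284, 252 and 244 in SMC#2, and 946, 874 and 1013 in Non-SMC#2. Both ways Eno1 was lower in SMC, by 0.74 from its own row (limma adjusted p = 0.00349) and by 1.69 from the sum (adjusted p = 3.97e-10) on the log2 scale. In pair 2 the own row did not pass the test (-0.46, adjusted p = 0.141) unless SMC#2 replicate 1 was left out (-0.80) or replicate numbers were used as a block (adjusted p = 0.0235), and the sum did (-1.86, adjusted p = 7.85e-09). Gapdh was at 58.4 ± 9.26 FPKM in SMC#1, 200.2 ± 6.54 in Non-SMC#1, 84.8 ± 2.12 in SMC#2 and 145 ± 10.5 in Non-SMC#2, a difference of -1.27 from its own row (adjusted p = 1.64e-09) and -1.28 with its copy.

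Eno2, the neuronal enolase used as a neuroendocrine marker, was higher in SMC. It was at 7.70, 8.38 and 9.21 FPKM in SMC#1, 3.44, 3.31 and 3.43 in Non-SMC#1, 2.597, 2.57 and 2.67 in SMC#2, and 1.77, 1.49 and 2.21 in Non-SMC#2. Each pair was apart, while SMC#2 lay below Non-SMC#1. The differences were 1.10 in pair 1 and 0.36 in pair 2 (SE 0.09 each, limma adjusted p = 7.93e-08 and 0.00189). As a share of Eno1 with its copies and Eno2, Eno2 was 2.98 to 3.69% in SMC#1 and 0.906 to 1.08% in SMC#2, against 0.441 to 0.484% in Non-SMC#1 and 0.170 to 0.218% in Non-SMC#2. Eno3, the muscle enolase, went the other way, at 2.08 to 3.31 FPKM in SMC#1 and 5.26 to 5.73 in SMC#2, against 22.8 to 24.5 in Non-SMC#1 and 30.9 to 36.5 in Non-SMC#2 (-2.54, adjusted p = 2.8e-12).

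Pyruvate kinase (Pkm) was at 239, 216 and 281 FPKM in SMC#1, 582, 594 and 582 in Non-SMC#1, 265, 237 and 237 in SMC#2, and 449, 407 and 505 in Non-SMC#2. The groups were apart (-1.07, SE 0.08, limma adjusted p = 3.09e-08). One row covers the whole gene, so the M1 and M2 splice forms were not separated. Lactate dehydrogenase A (Ldha) was at 223, 193 and 291 FPKM in SMC#1, 712, 749 and 713 in Non-SMC#1, 313, 305 and 273 in SMC#2, and 718, 557 and 689.7 in Non-SMC#2. It too was lower in all SMC libraries (-1.38, SE 0.10, adjusted p = 2.6e-08). Ldhb, the heart form, was low everywhere: listed at 0 in 2 SMC#1 libraries and at 0.0283 in the other, 7.03 to 8.69 FPKM in Non-SMC#1, 0.168 to 0.353 in SMC#2 and 0.864 to 1.64 in Non-SMC#2. It was thus highest in Non-SMC#1, where it still made up only 0.978 to 1.20% of lactate dehydrogenase FPKM. Across the own rows of the 17 enzyme genes from hexokinase to lactate dehydrogenase, the summed FPKM was 0.303 to 0.374% of the library total in SMC#1 and 0.380 to 0.433% in SMC#2, against 1.01 to 1.04% in Non-SMC#1 and 0.648 to 0.767% in Non-SMC#2. With the copies of Eno1 and Gapdh added, it was 0.423 to 0.518% in SMC#1 and 0.549 to 0.615% in SMC#2. The non-SMC shares were then 1.37 to 1.42% in Non-SMC#1 and 0.9755 to 1.16% in Non-SMC#2.

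**Figure D3:**
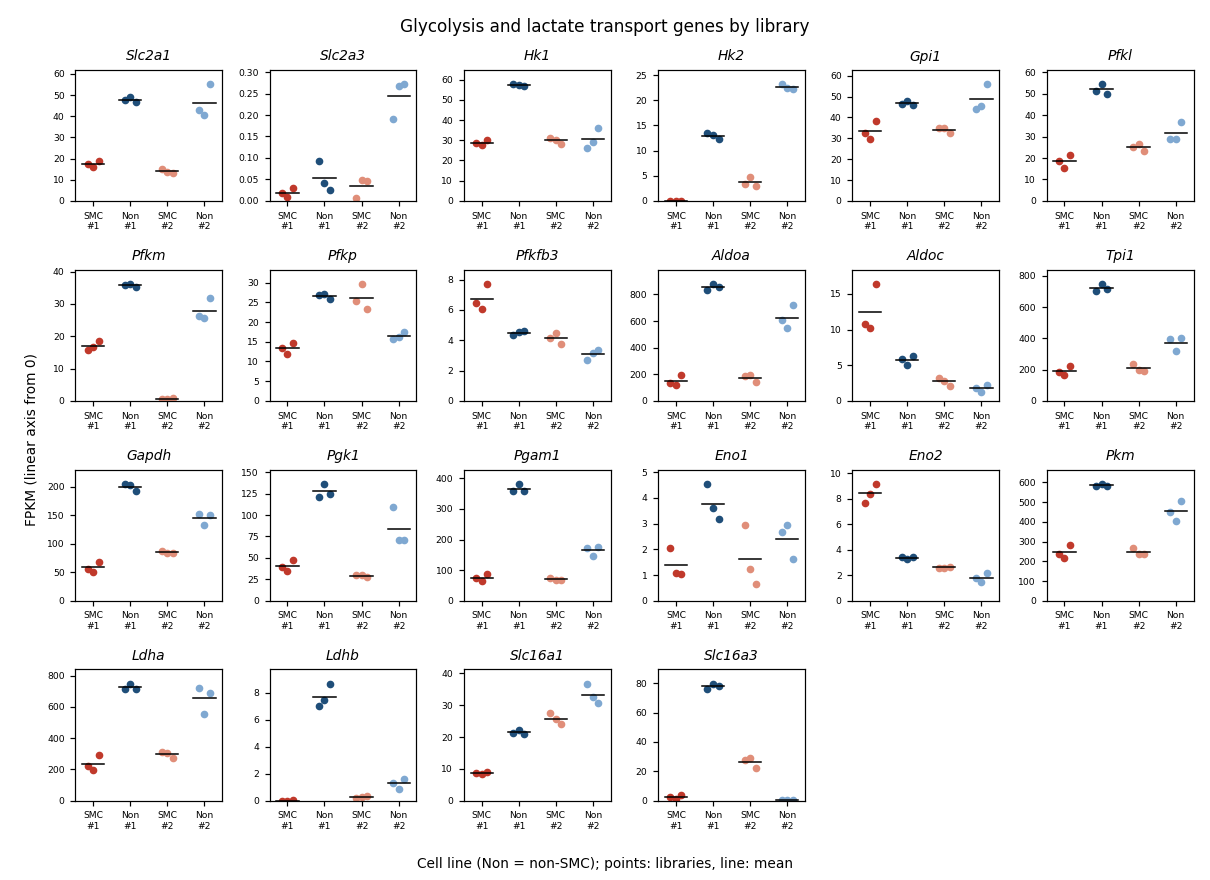
FPKM (vertical, linear from 0, own scale per gene) of the 22 glycolysis and lactate transport genes in the 4 lines, with 1 point per library and a line for the mean of 3. Aldoa, Tpi1, Gapdh, Pgk1, Pgam1, Pkm and Ldha are low in both SMC lines, Aldoc and Eno2 are highest in SMC#1, Slc16a3 is high in Non-SMC#1 and SMC#2, and Pfkm is near 0 in SMC#2.

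The lactate exporter gene Slc16a3 (MCT4) went opposite ways in the 2 pairs. It was at 2.21, 1.36 and 4.07 FPKM in SMC#1 and 76.0, 79.9 and 77.9 in Non-SMC#1, but at 28.0, 29.0 and 22.6 in SMC#2 and 0.549, 0.660 and 0.735 in Non-SMC#2. It was high in 1 line of each class. By mean FPKM it was 30.6-fold higher in Non-SMC#1 than in SMC#1 (-4.55, limma adjusted p = 1.58e-10), and 40.9-fold higher in SMC#2 than in Non-SMC#2 (4.05, adjusted p = 5.36e-10). The mean of both, -0.25, did not pass the test (adjusted p = 0.122), although it did without SMC#1 replicate 3 (-0.39). On mm9, Slc16a3 lies on chromosome 11 at 120809798 to 120820314.

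Slc16a1 (MCT1), which carries lactate both ways, was at 8.77, 8.34 and 8.92 FPKM in SMC#1, 21.4, 22.1 and 21.0 in Non-SMC#1, 27.5, 25.7 and 24.1 in SMC#2, and 36.8, 32.6 and 30.6 in Non-SMC#2. Within each pair it was lower in SMC, while pair 2 was higher than pair 1. The differences were -1.22 in pair 1 and -0.36 in pair 2 (limma adjusted p = 4.95e-09 and 0.000666). That of pair 2 was 0.0048 under TPM rescaling and lost its call under quantile normalization. Of the 2 carriers, Slc16a3 made up 14.0 to 31.3% of FPKM in SMC#1, 78.0 to 78.7% in Non-SMC#1, 48.3 to 53.0% in SMC#2 and 1.47 to 2.34% in Non-SMC#2. A further carrier gene, Slc16a7 (MCT2, of high affinity), was at 7.54 to 8.33 FPKM in SMC#1 and 3.89 to 4.69 in SMC#2, against 0.0146 to 0.0163 in Non-SMC#1 and 0.0494 to 0.134 in Non-SMC#2. Slc16a7 passed the filter only through SMC libraries, where it is high, so its difference of 2.74 is a description. With Slc16a7 counted, the Slc16a3 share was 7.61 to 19.8% in SMC#1 and 43.9 to 48.8% in SMC#2.

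Among the hypoxia factors, Hif1a, the oxygen-regulated subunit of HIF-1, was expressed in all lines. It was at 35.3, 35.6 and 32.7 FPKM in SMC#1, 43.8, 40.6 and 43.4 in Non-SMC#1, 51.7, 50.6 and 51.4 in SMC#2, and 50.3, 50.4 and 43.9 in Non-SMC#2. The order followed the pairs more than the classes. It was lower in SMC in pair 1 (-0.30, limma adjusted p = 0.00186), a call lost under TPM rescaling (-0.15) and quantile normalization (-0.16), and did not pass the test in pair 2 (0.090, adjusted p = 0.255). In pair 2 Hif1a was called higher in SMC under TPM rescaling (0.46), median-ratio scaling (0.19) and quantile normalization (0.45). The mean difference of -0.10 (adjusted p = 0.0703) became 0.15 and called under both of those scalings, and -0.14 and called without Non-SMC#2 replicate 3. HIF-1 is regulated mainly at the protein level, which was not measured. Epas1 (HIF-2 alpha) was low, at 0.259 to 0.302 FPKM in SMC#1, 0 to 0.0184 in Non-SMC#1, 0.146 to 0.277 in SMC#2 and 1.36 to 1.87 in Non-SMC#2, and passed the filter only through the last line. Its differences were 0.35 in pair 1 and -1.09 in pair 2.

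The response genes did not move together. Vegfa, the endothelial growth factor, was at 12.3, 14.0 and 15.5 FPKM in SMC#1, 77.7, 81.6 and 80.0 in Non-SMC#1, 20.3, 30.1 and 20.6 in SMC#2, and 101, 101 and 95.004 in Non-SMC#2. All SMC libraries were below all non-SMC libraries (-2.24, SE 0.09, limma adjusted p = 3.87e-11), by 5.72-fold in pair 1 and 4.18-fold in pair 2. Ankrd37 was the reverse, at 15.3, 13.8 and 21.1 FPKM in SMC#1, 4.46, 3.36 and 5.41 in Non-SMC#1, 16.0, 14.2 and 16.9 in SMC#2, and 9.92, 4.31 and 6.99 in Non-SMC#2. It was above the non-SMC libraries in all 6 SMC libraries (1.41, SE 0.16, adjusted p = 2.56e-06). On mm9, Vegfa lies on chromosome 17 at 46153943 to 46169326 and Ankrd37 on chromosome 8 at 47082262 to 47085204.

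Ndrg1, a stress-induced gene, was at 18.5, 18.4 and 23.9 FPKM in SMC#1, 27.5, 26.8 and 26.2 in Non-SMC#1, 9.52, 10.7 and 8.39 in SMC#2, and 60.1, 58.7 and 70.6 in Non-SMC#2. It was lower in SMC in both pairs, with a wider gap in pair 2 (-2.61) than in pair 1 (-0.40), and the difference between the pairs was 2.21 (limma adjusted p = 6.55e-08). Egln3, the inducible HIF hydroxylase, was lower by a like amount in both pairs (-0.91 and -0.96, adjusted p = 1.1e-05 and 6.03e-06), at 6.26 ± 0.918 FPKM in SMC#1, 12.5 ± 0.655 in Non-SMC#1, 3.51 ± 0.243 in SMC#2 and 7.86 ± 1.59 in Non-SMC#2. Egln1, the main hydroxylase, was lower in SMC in pair 1 (-0.41, adjusted p = 0.000286), while its pair 2 difference of -0.11 (adjusted p = 0.198) was 0.26 under TPM rescaling and 0.16 under quantile normalization. Pdk1, the kinase that holds back pyruvate dehydrogenase, was at 4.84 to 7.22 FPKM in all libraries, and was lower in SMC in pair 1 (-0.38, adjusted p = 0.00238). In pair 2 it was -0.058 (adjusted p = 0.574), and 0.29 under TPM rescaling.

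Bnip3, a mitophagy receptor gene, and Ddit4, an inhibitor of mTORC1, each changed sign between the pairs. Bnip3 was at 14.5, 15.8 and 26.2 FPKM in SMC#1 and 33.9, 31.0 and 34.4 in Non-SMC#1, against 24.2, 27.6 and 23.5 in SMC#2 and 19.5, 12.5 and 14.0 in Non-SMC#2. Its difference was -0.83 in pair 1 and 0.70 in pair 2 (limma adjusted p = 0.00142 and 0.00454). Ddit4 was at 46.7, 42.2 and 51.4 FPKM in SMC#1 and 32.9, 32.9 and 35.6 in Non-SMC#1, against 31.4, 36.4 and 28.8 in SMC#2 and 57.3, 52.3 and 57.8 in Non-SMC#2. The signs were opposite to those of Bnip3, with 0.45 in pair 1 and -0.78 in pair 2 (adjusted p = 0.000655 and 5.29e-06). The mean Ddit4 difference of -0.16 (adjusted p = 0.0361) lost the call without any 1 of 6 libraries, namely SMC#1 replicate 1 or 2, Non-SMC#1 replicate 3, SMC#2 replicate 1 or 3 and Non-SMC#2 replicate 3 (adjusted p = 0.0600 to 0.0991), and was 0.094 under TPM rescaling and 0.054 under quantile normalization. The hypoxia marker Car9 (a carbonic anhydrase) was at 0 to 0.272 FPKM and the peptide hormone gene Adm at 0 to 0.451, so neither passed the filter.

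**Figure D4:**
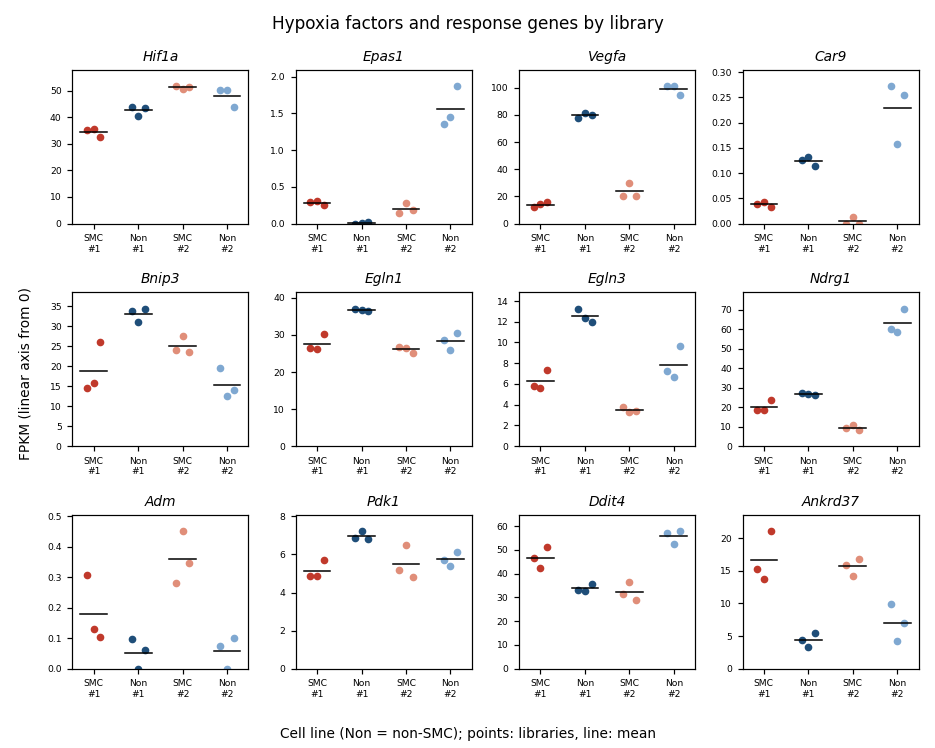
FPKM (vertical, linear from 0, own scale per gene) of the 12 hypoxia factors and response genes in the 4 lines, with 1 point per library and a line for the mean of 3. Vegfa is low in both SMC lines, Ankrd37 is high in both, and Bnip3 and Ddit4 each switch between the pairs.

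The pairs were then compared. In pair 1, 25 members were lower and 6 higher in SMC#1 than in Non-SMC#1, beside 36.5% lower and 43.9% higher of all rows. In pair 2, 19 were lower and 7 higher in SMC#2 than in Non-SMC#2, beside 42.8% and 39.2%. Ldhb, which entered the test only through non-SMC libraries, counts as lower in both pairs, and Epas1 as lower in pair 2. TPM rescaling changed the pair 2 counts to 16 and 11, and those of all rows to 4427 lower and 7357 higher of 14334. Of the 31 members, 5 were called in opposite directions in the pairs, where the background is 6.81%. These were Pfkp, Slc16a3, Bnip3, Ddit4 and Epas1, of which Epas1 passed the filter only through Non-SMC#2, where it is high, and was under 1 FPKM in all libraries of pair 1. The difference between the pairs was called for 20 members, lower for 15 (background 22.5%) and higher for 5 (background 38.2%). Among the glycolysis enzymes lower in SMC the gap was larger in pair 1 for Hk1, Hk2, Pfkl, Aldoa, Tpi1, Gapdh, Pgam1, Ldha and Ldhb, and larger in pair 2 for Pfkm. Eno2, which was higher in SMC, also had the larger gap in pair 1 (0.73, limma adjusted p = 0.000216). For Slc2a1, Gpi1, Pgk1, Pkm and Vegfa it did not pass the test.

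The 2 lines of each class were also compared. Between Non-SMC#1 and Non-SMC#2, 19 members were higher in the former (background 25.8%) and 5 lower (background 31.5%). The higher ones included Pgam1 at 367 ± 14.1 against 165 ± 16.1 FPKM (1.15, limma adjusted p = 1.67e-06) and Tpi1 at 724 ± 23.7 against 373 ± 45.9 (0.96, adjusted p = 3.61e-05). Between SMC#1 and SMC#2, 9 members were higher in the former (background 36.2%) and 9 lower (background 20.6%), and other scalings changed both these counts and the background. TPM rescaling gave 7 and 13 members, beside 3729 rows higher and 4139 lower of 14334. Median-ratio scaling gave 7 and 11, beside 3718 and 3655 of 13116 rows, and quantile normalization gave 8 and 12, beside 3785 and 3973 of 13122 rows. Pkm was alike in the SMC lines (-0.012, SE 0.11, adjusted p = 0.954), whereas Pfkm (3.44) and Slc16a3 (-3.02) were far apart. Non-SMC#1 had the highest mean for 19 of the 31 members and SMC#1 the lowest for 16. These counts were not made over all rows, so the ranking may not be particular to these genes.

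Libraries of 1 line also differed in these genes. In SMC#1, replicate 3 was the highest of its line for 20 of 21 glycolysis members, beside 6273 of all 13122 rows. The same held for 8 of 10 hypoxia members. Over the glycolysis members its median was 0.29 log2 units above the other 2, beside 0.036 over all rows. Replicate 2 was the lowest for 16 of the 21, beside 6008 rows. In Non-SMC#2, replicate 3 was the highest for 15 of 21, beside 5060 rows, by a median of 0.18 (0.0030 over all rows). SMC#2 replicate 3 was the lowest of its line for 18 of 21, beside 5404 rows, by a median of -0.14 (-0.031 over all rows).

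Beyond the members, lists of neighbouring genes were examined. Their counts of genes called alike in both pairs stand beside 32% higher and 30.2% lower among all rows, and several of these lists are short. Some of the genes counted passed the filter only through libraries of the class where they are high, so their calls are a description. Of 16 other glycolysis isozymes 8 were tested, and 2 were higher and 4 lower in SMC in both pairs. Besides Eno3 these included Pfkfb2 (0.67), which like Pfkfb3 makes fructose 2,6-bisphosphate, and Bpgm (-0.62), which makes 2,3-bisphosphoglycerate. Among 11 other carriers, 6 were tested, 3 were higher in both pairs and 1 was lower (32% and 30.2% of all rows). The 3 higher ones passed the filter only through SMC libraries, where each is high, so their calls are a description. Slc2a9, a urate and hexose transporter, was higher by 1.60 on the log2 scale. Bsg, the chaperone of the MCT carriers, was lower (-0.59, limma adjusted p = 1.18e-05). Of 7 pentose phosphate genes none was higher and 2 were lower in both pairs, a share of lower genes near that of all rows. They were both dehydrogenases that make NADPH. Pgd was at 14.7 to 26.8 FPKM in SMC and 90.4 to 118 in non-SMC (-2.30, adjusted p = 3.1e-12), and G6pdx differed by -1.15 (adjusted p = 3.72e-09).

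At the entry of pyruvate into mitochondria, 2 of 13 genes were higher and 2 lower in both pairs, each a smaller share than among all rows (32% and 30.2%). Pdha1, the E1 alpha subunit of pyruvate dehydrogenase, was at 24.6 to 28.3 FPKM in SMC and 61.5 to 82.5 in non-SMC (-1.45, limma adjusted p = 5e-12). Pdhx, a further subunit of the complex, differed by -0.49, while the phosphatase genes Pdp1 and Pdp2, whose products activate it, were higher in SMC (1.29 and 0.53). Of 6 gluconeogenesis genes, 3 were tested. Fbp1 (fructose-1,6-bisphosphatase) was at 2.45 to 2.73 FPKM in SMC#1 and 0.118 to 0.186 in SMC#2 and was listed at 0 in each non-SMC library.

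Among 9 oxygen sensing genes, 8 were tested, 1 was higher in both pairs and none was lower. That was Arnt2, the neuronal HIF partner (1.45, limma adjusted p = 3.5e-11). Of 24 other hypoxia response genes 23 were tested, with 5 higher and 12 lower in SMC in both pairs, beside 32% and 30.2% of all rows. The largest fall was in Lox, a collagen crosslinking enzyme gene, at 0.0321 to 0.169 FPKM in SMC and 107 to 446 in non-SMC (-7.68). Lox passed the filter only through non-SMC libraries, where it is high, so its call is a description. It also belongs to the matrix genes of mesenchymal cells, whose markers moved with the classes as given above. The largest rises were in Rora, a nuclear receptor gene (1.40, adjusted p = 6.52e-12), and Mxi1, an antagonist of Myc (1.25, adjusted p = 2.49e-11).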

How the data were processed

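RNA of 12 libraries (4 lines, 3 libraries each) was sequenced by the authors as paired-end reads; the submitters' notes name STAR 2.6.1b, mm10 and DESeq2. The deposited values are FPKM, per gene row and library; no source used here names the tool that made them. The positions are mm9: of 22882 rows matched by symbol to GRCm38, 2531 overlapped their position there and 10606 had its length. No read counts were analysed here, so no count test was run, and an exact 0 may be a failed estimate. The paper assigns this series to SMC with mutant TAZ, whereas the labels give SMC and non-SMC and were followed. Strand settings were not given, so overlapping genes cannot be separated.

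The 13122 of 24458 rows that reached 1 FPKM in 3 or more libraries were fitted as log2(FPKM + 1), which understates changes of low genes, with limma 3.58.1 (trend, robust) in R 4.3.3, 1 mean per line. The SMC against non-SMC difference is the mean of the within-pair differences. Tests were two-sided and Benjamini-Hochberg adjusted over all rows. Isozyme shares and promoter motifs (RefSeq) are descriptions. The procedure was tested on simulated data. Members and lists were chosen with earlier results of these data known. Named were all 34 members, and up to 2 genes per direction of each further list with the largest difference among those called alike in both pairs; 2 genes that this names are not reported here. Near-identical transcripts were found by blastn (at least 95% identity over 50% of the copy), and copies of at least 99% were summed as an alternative chosen after seeing the data. Other alternatives were a pseudocount of 0.1, no filter, TPM rescaling, median-ratio scaling, quantile normalization, the line as the unit, the replicate number as a block, neither trend nor robust, and each library left out.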

Additional observations from a re-analysis of the deposited data

Results flagged for a closer look

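Chance places about 1 in 20 groups of libraries past the limit for a single extreme value, so the following 3 among the members need not stand out. Gpi1 in Non-SMC#2 replicate 3 was at 56.2 FPKM, above the other 5 non-SMC libraries. Ldha in Non-SMC#2 replicate 2 was at 557 FPKM, below the others. Egln1 in SMC#1 replicate 3 was at 30.4 FPKM, above the other SMC libraries.

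The difference between SMC and non-SMC was unlike in the 2 pairs for 20 members, by limma's test of the difference itself (pair 1 minus pair 2, adjusted over all rows). Of these, 15 were lower (background 22.5%) and 5 higher (background 38.2%). Only 5165 of all 13122 rows were not called, so such differences were common outside the members too. The difference between the pairs was -8.60 for Slc16a3, 3.08 for Pfkm, -2.26 for Ldhb, 2.21 for Ndrg1, -1.58 for Pfkp, -1.53 for Bnip3, -1.46 for Hk2 and 1.44 for Epas1. Epas1 entered the test only through Non-SMC#2 and Ldhb only through non-SMC libraries, where each is high, so their values are a description. It was 1.23 for Ddit4, -1.14 for Pfkl, -1.09 for Tpi1, -1.08 for Pgam1, -1.0025 for Gapdh, -0.95 for Hk1, -0.86 for Slc16a1 and 0.73 for Eno2. The smallest were -0.69 for Aldoa (adjusted p = 0.0317), -0.50 for Ldha (adjusted p = 0.0488), -0.39 for Hif1a (adjusted p = 0.00503) and -0.30 for Egln1 (adjusted p = 0.0306). Each pair is 1 line of each class, so a difference between the pairs cannot be told apart from a difference between single lines.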

How the results depend on the processing

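With the line as the unit (1 residual degree of freedom), the members called fell from 24 to 8 lower and from 4 to 1 higher; Slc2a1, Hk2, Aldoa, Pgk1, Pgam1, Pkm, Ldha, Vegfa and Ankrd37 were called. TPM rescaling raised the median difference of all rows to 0.31 and the all-row calls from 5870 higher and 5560 lower to 7782 and 4739 (of 14334 rows, as more passed the filter). The members' median was -0.64 under it, against -0.79, and 11 members instead of 7 were higher in pair 2. In that setting the sign turned for Pfkp (0.092), Hif1a (0.15), Pdk1 (0.0056) and Ddit4 (0.094) in SMC against non-SMC, and for Hk1 (0.36), Pfkl (0.051), Slc16a1 (0.0048), Egln1 (0.26) and Pdk1 (0.29) in pair 2. Quantile normalization turned Hif1a (0.15) and Ddit4 (0.054) in SMC against non-SMC, and Hk1 (0.27) and Egln1 (0.16) in pair 2. Of 28 members called, 24 stayed called under each alternative other than the line as the unit, the exceptions being Ddit4, Egln1, Pdk1 and Pfkp. Leaving out each library gave 22 to 25 members lower and 4 higher in SMC against non-SMC.

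Same-numbered libraries deviated together no more often than others (correlations of -0.38 to 0.35, 4 of 18 over 0.1). For unlike numbers the correlations were -0.42 to 0.35, with 15 of 36 over 0.1. The 4 were replicate 2 of SMC#1, SMC#2 and Non-SMC#2 with each other (0.25 to 0.35), and replicate 1 of SMC#2 with Non-SMC#2 (0.31). With the replicate number as a block (replicate block), 22 members were lower and 4 higher, as Pfkp and Ddit4 lost the call, and Eno1 was called in pair 2. Shares by FPKM times row length were not run, because the table gives no lengths.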
